A study of Mus musculus with 27 samples.

Results

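The proneural transcription factors examined here were 7 genes chosen by name: Neurog1, Neurog2, Neurod1, Neurod4, Insm1, Olig2 and Atoh1. They are 7 of the 25209 genes listed in each of the 8 deposited tables. The tables compare V6.5 mouse embryonic stem cells (mESCs) with a knockout of Zfp512b with wild-type (WT) mESCs, at the naive, primed, neural progenitor cell (NPC) and cardiomyocyte (CM) stage. Values are read counts per library, recovered as whole numbers from deposited means over pairs of groups, and a gene was called changed when its adjusted p from limma voom, corrected over all genes tested at that stage, was below 0.05.

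There were 27 RNA-seq libraries in 12 groups. WT cells and the Zfp512b knockout clones #4 (KO4) and #8 (KO8) each gave 3 libraries in the naive state at day 0 and 2 libraries in the primed state at day 2. Each gave 2 further libraries as CMs at day 7.5 and as NPCs at day 10. Naive cells were kept in 2iLIF medium and primed cells in serum with LIF. The CM protocol used hanging-drop embryoid bodies with vitamin C, and the NPC protocol used embryoid bodies with retinoic acid, which were collected whole. The knockout is a transcription terminator cassette inserted by CRISPR-Cas9, so each KO group is 1 clone, while the WT cells were the parental line and carry no cassette. Loss of Zfp512b, the editing and selection, and the origin of a line from 1 cell cannot be told apart in a comparison of a single clone with WT. The labels do not say that libraries of a group came from separate cultures, so p-values measure the spread between these libraries, which may be technical.

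Proneural factors are basic helix-loop-helix (bHLH) proteins that commit dividing neural progenitors to a neuronal fate. They pair with E proteins, bind the E box and switch on Notch ligands such as Dll1, through which neighbouring cells remain progenitors. Neurog1, Neurog2 and Atoh1 act early in this sequence, and Neurod1 and Neurod4 follow in cells that leave the cell cycle. Insm1 is not a bHLH protein but a zinc-finger repressor that proneural factors induce in basal progenitors and endocrine precursors. Olig2 is a bHLH repressor of the ventral spinal cord, where it marks motor neuron and oligodendrocyte progenitors.

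All 7 genes are compact. In the mm9 build used for the files, Neurog1 covers chr13:56351866-56353524 on the minus strand, Neurog2 chr3:127336054-127338549 on the plus strand and Atoh1 chr6:64679140-64681227 on the plus strand. Neurod1 covers chr2:79292678-79296908 and Neurod4 chr10:129705209-129717296, both on the minus strand. Insm1 lies at chr2:146047657-146050752 and Olig2 at chr16:91225795-91228922, both on the plus strand. Neurog1, Insm1 and Atoh1 have 1 exon and the other 4 genes have 2. None lies on chromosome 8, whose genes had a median log2 fold change of 0.41 to 0.64 against WT in every stage and clone, while the median of all genes stayed between -0.06 and 0.10.

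Promoter sequences of 6 of the 7 genes were found in RefSeq (GRCm38.p6, a later build than that of the files), covering 250 bases before and 50 after the start of transcription. The 3 promoters that hold an E box, the motif bound by these factors, are shown because several of these genes are known targets of other proneural proteins. Capitals mark the E box (CANNTG, the same on both strands), which begins at position 5 in Neurog1 (chr13:56252131-56252430), counting the start as 1, at position 5 in the second annotated promoter of Neurod4 (chr10:130280089-130280388) and 242 bases before the start in Neurod1 (chr2:79456587-79456886). All 3 are on the minus strand and are written 5′ to 3′ along the gene.
Neurog1: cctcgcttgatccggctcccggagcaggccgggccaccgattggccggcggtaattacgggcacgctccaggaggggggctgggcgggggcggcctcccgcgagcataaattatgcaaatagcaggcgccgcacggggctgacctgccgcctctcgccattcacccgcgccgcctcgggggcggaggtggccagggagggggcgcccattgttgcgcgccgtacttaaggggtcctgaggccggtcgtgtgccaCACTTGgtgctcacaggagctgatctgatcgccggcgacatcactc
Neurod4: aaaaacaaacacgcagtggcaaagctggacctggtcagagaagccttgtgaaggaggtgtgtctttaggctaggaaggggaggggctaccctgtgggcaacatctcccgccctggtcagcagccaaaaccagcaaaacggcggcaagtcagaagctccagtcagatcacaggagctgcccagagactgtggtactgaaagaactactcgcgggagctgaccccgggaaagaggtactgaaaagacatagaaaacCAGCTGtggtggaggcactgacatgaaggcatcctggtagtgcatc
Neurod1: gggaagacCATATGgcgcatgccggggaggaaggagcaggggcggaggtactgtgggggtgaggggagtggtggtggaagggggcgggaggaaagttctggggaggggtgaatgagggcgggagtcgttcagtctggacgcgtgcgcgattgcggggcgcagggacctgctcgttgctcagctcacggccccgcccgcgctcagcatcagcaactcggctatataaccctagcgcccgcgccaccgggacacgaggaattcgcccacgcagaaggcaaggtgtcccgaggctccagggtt
CANNTG occurred in 72.3% of 32851 promoters of 300 bases, so 3 of 6 is not a high share. The letters CACNAG, the core of the site bound by Hes repressors, were found on either strand in Atoh1, Neurod1, Neurod4 and Neurog2, which is 4 of 6 promoters beside 42.5% of all. A match is a description of the letters and not evidence of binding.

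Libraries held 34.2 to 39.7 M reads in the naive stage and 15.1 to 19.3 M in the others. Counts could be recovered only for genes below a stage's limit of mean expression, and 6 of the 7 factors were recovered in the naive stage and all 7 in the other stages. After the filter for a mean of at least 10 reads, 1 of the 7 could be tested in naive cells (Neurod1), 3 in primed cells (Insm1, Neurod1 and Olig2), all 7 in NPCs and 2 in CMs (Insm1 and Olig2). Zfp512b itself was resolved in primed cells, where it had 977 and 979 reads in the WT libraries, 188 and 213 in KO4 and 183 and 135 in KO8. The level of Zfp512b was 55.2 ± 2.0 CPM (counts-per-million, SD, n = 2) in WT, 11.9 ± 1.1 in KO4 and 9.81 ± 1.2 in KO8. At the other stages its counts per library were not resolved. In the NPC tables the pan-neural gene Nes stood at 258.0 CPM (the authors' mean over WT and KO4 libraries), beside 580.8 CPM of Col3a1, a collagen of mesenchyme, and 445.3 CPM of Gata6, a factor of endoderm and mesoderm. The bodies labelled NPC thus also held RNA of genes typical of non-neural cells. In bulk RNA fewer cells of a type and less RNA per cell cannot be told apart.

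The 7 factors differed in when they were expressed in WT cells. Neurod1, Insm1 and Olig2 were already present in primed cells, while Neurog1, Neurog2 and Neurod4 appeared in the NPC stage. In CPM per kilobase of transcript, the order in WT primed cells was Olig2 (18.6 ± 0.3, SD, n = 2), Neurod1 (5.23 ± 0.064), Insm1 (2.82 ± 0.059), Neurog1 (0.236 ± 0.14) and Atoh1 (0.0277 ± 0.039), and the first 3 were separated from their neighbours by more than the spread. Neurog2 and Neurod4 had 0 reads in both WT primed libraries, which allows up to 0.0846 CPM over the group, with 3 reads taken as the floor. This limit is too low if both mates of a pair were counted. In WT NPCs the order was Neurog1 (5.37 ± 1.0 CPM per kilobase), Insm1 (2.90 ± 0.71), Neurog2 (2.08 ± 1.2), Neurod4 (0.677 ± 0.20), Neurod1 (0.649 ± 0.014), Olig2 (0.135 ± 0.061) and Atoh1 (0.0984 ± 0.013). Insm1 and Neurog2, Neurod4 and Neurod1, and Olig2 and Atoh1 did not differ beyond their spread. In WT CMs, Olig2 (0.289 ± 0.23), Insm1 (0.266 ± 0.051) and Neurod1 (0.236 ± 0.064) overlapped, and the other 4 were at 0 to 0.033 CPM per kilobase.

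**Figure D1:**
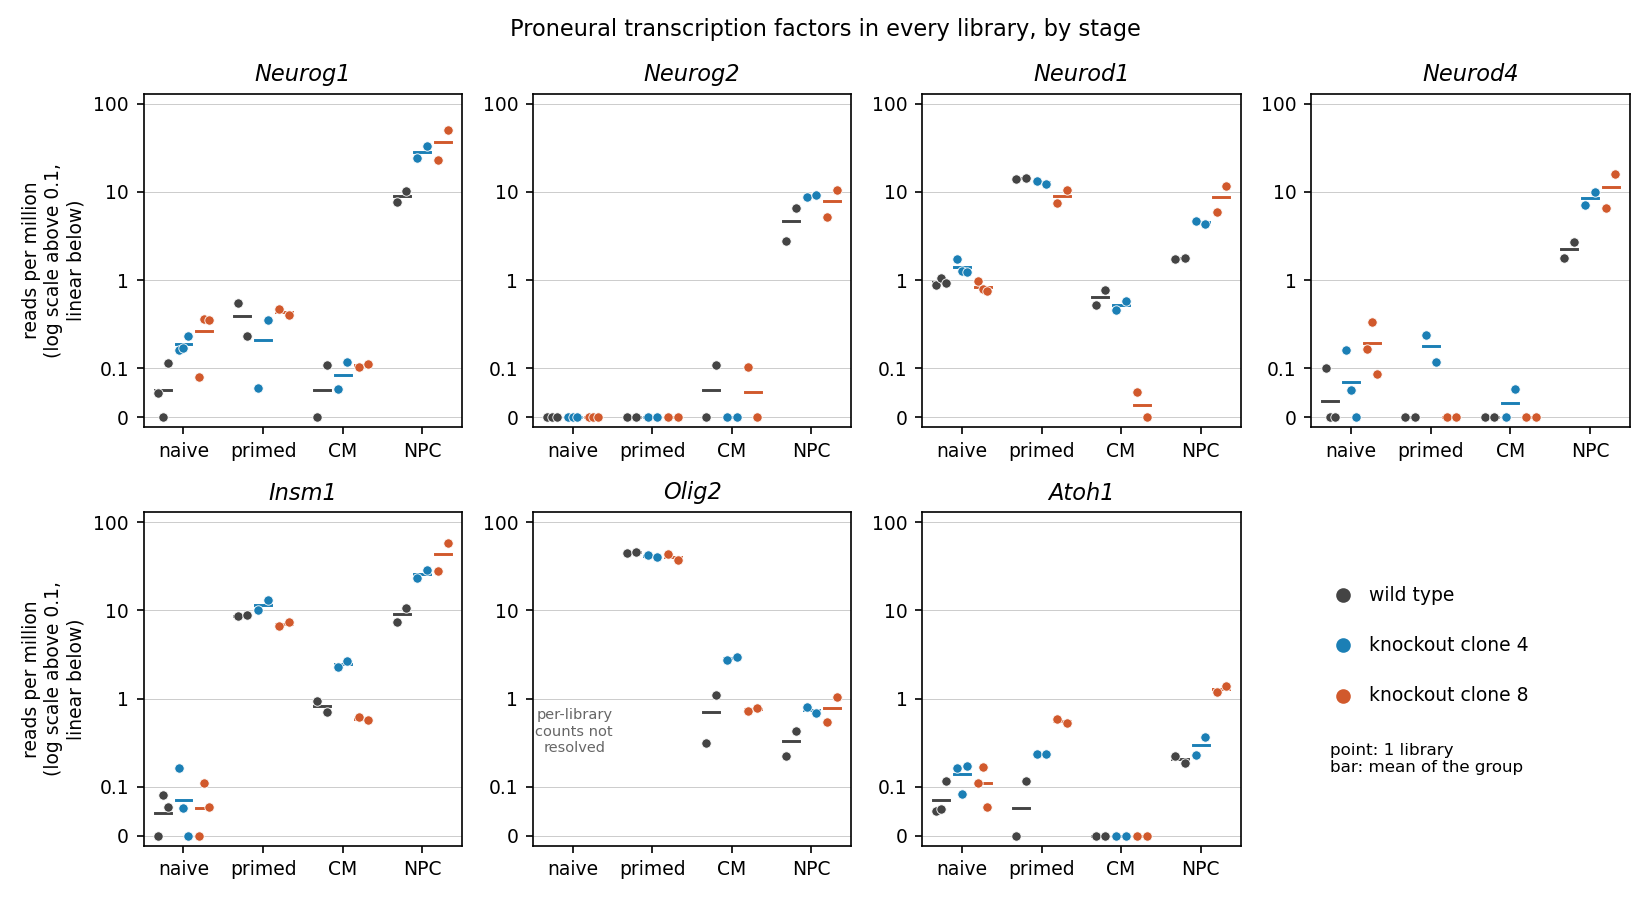
CPM of each factor (vertical axis, logarithmic above 0.1 and linear below) in every library of the naive, primed, CM and NPC stages. Points are libraries (WT, KO4 and KO8), bars are group means, and the naive counts of Olig2 were not resolved. Neurog1, Neurog2 and Neurod4 sit near 0 outside the NPC stage, and Olig2 is far higher in primed cells (40.6 to 45.4 CPM) than in NPCs (0.329 to 0.786 CPM).

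These stage changes were tested in WT cells with all 27 libraries in 1 fit of 2774 genes, which excludes genes that are high in naive cells, so that the median gene already shifted by 1.12 (primed against naive), 1.79 (NPC against primed), 1.52 (CM against primed) and 0.24 (NPC against CM) on the log2 scale. From naive to primed cells, Insm1 went from 5 reads in 3 libraries to 309 in 2, a ratio of depth-scaled reads of 192.3 (exact 95% interval 81.5 to 596.3). The log2 change of Insm1 was 7.66 ± 0.71 (SE, adjusted p = 1.5e-08), that of Neurod1 was 3.97 ± 0.30 (adjusted p = 7.3e-10) and that of Neurog1, on 6 and 14 reads, was 3.07 ± 1.11 (adjusted p = 0.030), where 37.2% of all genes rose. The Neurog1 call was lost without the second naive WT library (2.16, adjusted p = 0.16) or the first primed WT library (2.49, adjusted p = 0.20). A factor that is scarce at 1 stage passed the filter of this fit through the stages where it is abundant, so the number of factors called between stages is not read as a result. From primed cells to NPCs, Neurog2 went from 0 reads to 154 and Neurod4 from 0 reads to 76. The lower ends of their exact 95% intervals were 43.1-fold and 21.0-fold higher. Such intervals address counting error only, and are too narrow even for that if both mates of a pair were counted. Neurog1 went from 14 reads to 300, a depth-scaled level 22.4-fold higher (exact 95% interval 13.1 to 41.5). It entered the fit through the NPC libraries, which fixed its direction, so no test of this rise is given. Over all genes of the fit, 57.0% rose. Neurod1 fell by 3.43 ± 0.37 (adjusted p = 4.2e-08), where 15.6% of genes fell.

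Olig2 could not be part of that fit and was tested without the naive libraries, a choice made after seeing the data. Its log2 change from primed cells was -7.5 ± 0.60 in NPCs (adjusted p = 5.7e-09) and -6.5 ± 0.48 in CMs (adjusted p = 2.5e-09). In that fit of 18 libraries, 33.0% and 34.0% of genes fell. From primed cells to CMs in the fit of 27 libraries, the log2 change was -3.64 ± 0.77 for Insm1 and -4.72 ± 0.53 for Neurod1, where 15.3% of genes fell. Neurog1 went from 14 reads to 2, a depth-scaled level 7.41-fold lower (exact 95% interval 1.70 to 67.1), and its call was lost without the first primed WT library (adjusted p = 0.17), without the first CM WT library (adjusted p = 0.29) and in the fit of 18 libraries (adjusted p = 0.31). Between the endpoints of the 2 protocols, Insm1 was higher in WT NPCs than in WT CMs by 3.22 ± 0.77 on the log2 scale, where 30.5% of all genes were higher. Neurod1 differed by 1.3 ± 0.61 (adjusted p = 0.076). Neurog1 and Neurog2 had 2 reads each in WT CMs and entered the fit through the NPC libraries, which fixed their direction. Their depth-scaled reads were 165.9-fold (exact 95% interval 45.5 to 1376.3) and 85.2-fold (23.2 to 709.5) higher in NPCs. For Neurod4, with 0 reads in WT CMs, the lower end of the exact 95% interval was 22.2-fold higher. A stage and any sequencing run that went with it cannot be told apart.

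The comparison of KO and WT NPCs asks whether neural differentiation proceeds alike without Zfp512b. The early factor Neurog1, which starts neurogenesis in sensory and spinal progenitors, had 137 and 163 reads in the WT libraries, 423 and 528 in KO4 and 427 and 878 in KO8. All 4 KO libraries lay above both WT libraries, and the mean level was 8.90 ± 1.7 CPM in WT, 28.5 ± 6.0 in KO4 and 36.7 ± 19 in KO8 (SD, n = 2). The related factor Neurog2 had 49 and 105 reads in WT, 153 and 149 in KO4 and 96 and 182 in KO8. Here 1 KO8 library fell within the range of the WT libraries. Atoh1, which specifies dorsal hindbrain and spinal progenitors, had 4 and 3 reads in WT, 4 and 6 in KO4 and 22 and 24 in KO8. Only the KO8 libraries stood clearly away from WT for Atoh1.

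The later factors were lowest in WT too. Neurod1, which acts in newborn neurons, had 31 and 29 reads in WT, 81 and 70 in KO4 and 109 and 202 in KO8. Neurod4, which acts with it, had 32 and 44 reads in WT, 125 and 159 in KO4 and 122 and 279 in KO8. Insm1 had 132 and 170 reads in WT, 406 and 458 in KO4 and 514 and 1018 in KO8. For all 3 genes both clones lay above both WT libraries. Olig2 was scarce, with 4 and 7 reads in WT, 14 and 11 in KO4 and 10 and 18 in KO8. After scaling for depth, 6 of the 7 factors (not Neurog2) were higher in all 4 KO libraries than in both WT libraries, which held for 16.3% of all 8134 genes tested. Atoh1 was among the 6 only through scaling, since 1 KO4 and 1 WT library both had 4 reads. Atoh1 and Olig2 passed the filter of 10 reads only through KO libraries, which favoured this direction, so neither is taken as support.

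In KO8 NPCs 3 of the 7 factors were called higher, where 4.12% of all genes were. Atoh1 rose by a log2 fold change of 2.46 ± 0.57 (SE, adjusted p = 0.040), Insm1 by 2.18 ± 0.49 (adjusted p = 0.037) and Neurod1 by 2.18 ± 0.46 (adjusted p = 0.032). Atoh1 passed the filter on low counts only through its KO8 libraries, so its call is not taken as support. Neurog1 (1.92 ± 0.49, adjusted p = 0.053) and Neurod4 (2.18 ± 0.58, adjusted p = 0.059) missed the threshold narrowly, and Olig2 (1.17 ± 0.62) and Neurog2 (0.79 ± 0.45) missed it by more. The median over the 7 factors was 2.18, beside 0.00 for all genes. The calls rested on both WT libraries, since leaving out either one left 0 of 7 called, with adjusted p for Neurod1 of 0.29 and 0.20. They rested on the KO4 libraries as well: when KO8 was fitted with WT alone, none of the 6 factors above the filter was called (lowest adjusted p 0.084, for Neurod1), where 0.293% of genes were called higher. The 2 KO8 libraries themselves differed, as described below.

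In KO4 NPCs none of the 7 factors was called in the fit of the 3 NPC groups, where 1.54% of genes were called higher. At an unadjusted p, 5 of the 7 were below 0.05, as were 18.8% of all genes in either direction, and limma trend called 4, beside 4.19% of all genes called higher. The estimates were all above 0, from 0.45 ± 0.67 for Atoh1 to 1.91 ± 0.59 for Neurod4, with a median of 1.33 beside -0.02 for all genes. Neurog1 stood at 1.67 ± 0.51 (adjusted p = 0.13) and Insm1 at 1.54 ± 0.52 (adjusted p = 0.16). This outcome depended on which libraries shared the estimate of the spread. When KO4 was fitted with WT alone, 5 of the 5 factors above the filter were called, where 10.0% of genes were called higher. The fold changes hardly moved in that fit while their errors shrank, to 1.67 ± 0.17 for Neurog1 (adjusted p = 3.1e-10) and 1.54 ± 0.17 for Insm1 (adjusted p = 1.4e-09). Neurod4 (1.92 ± 0.30), Neurod1 (1.33 ± 0.33) and Neurog2 (1.11 ± 0.26) were the other 3, and Olig2 and Atoh1 were below its filter.

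**Figure D2:**
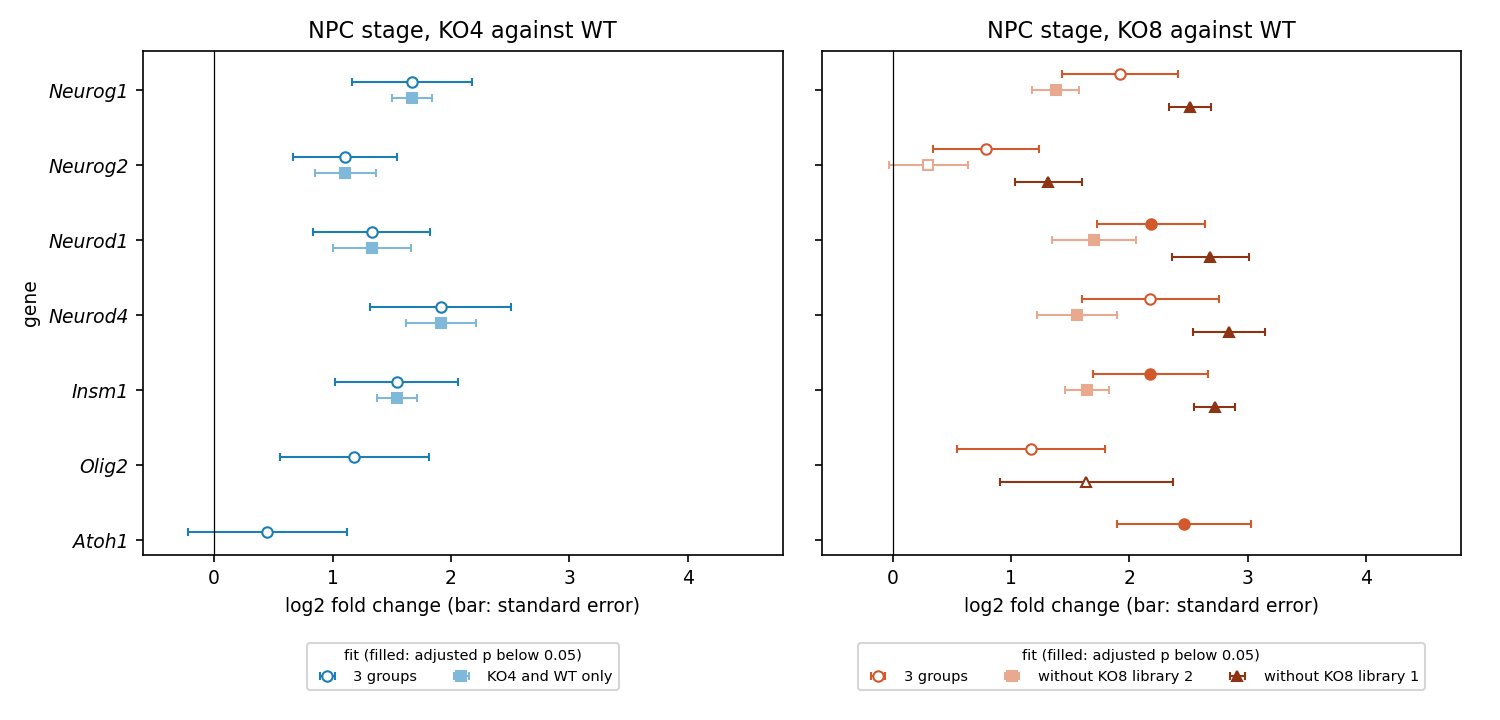
Log2 fold change of each factor against WT (horizontal axis, bars are standard errors) in NPCs of KO4 (left) and KO8 (right), from the fit of the 3 groups and from fits with fewer libraries, as the symbols show. Filled symbols have an adjusted p below 0.05. All estimates are at or above 0.30, and the KO4 errors shrink when the KO8 libraries are left out.

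The 2 KO8 libraries of the NPC stage differed more than the other pairs of that stage. Among 6050 genes they differed over 2-fold in 5.95%, beside 0.33% to 1.06% for the WT and KO4 pairs. All 7 factors were higher in the second KO8 library, by a median log2 difference of 1.01. Without the second library, 4 of the 5 factors above the filter were called in KO8 (Insm1 1.64 ± 0.19, Neurod1 1.70 ± 0.35, Neurod4 1.56 ± 0.34 and Neurog1 1.38 ± 0.20), beside 8.85% of all genes. Without the first library, 5 of 6 were called (Insm1 2.72 ± 0.17, Neurod1 2.68 ± 0.32, Neurod4 2.84 ± 0.30, Neurog1 2.51 ± 0.18 and Neurog2 1.31 ± 0.28), beside 16.9% of all genes. In these fits the single remaining KO8 library was taken to vary like the other groups.

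KO8 and KO4 NPCs were also compared directly. None of the 7 factors was called by limma voom or limma trend, beside 0.418% of all genes called higher in KO8, and 2 had an unadjusted p below 0.05, as had 14.4% of all genes. Atoh1 was nearest to the threshold (2.01 ± 0.53, adjusted p = 0.16), on 10 reads in KO4 and 46 in KO8, and the other 6 lay between -0.31 ± 0.38 for Neurog2 and 0.85 ± 0.35 for Neurod1. This too turned on 1 library. Without the first KO8 library, 4 factors were called higher in KO8 than in KO4 (Insm1 1.18 ± 0.13, Neurod1 1.35 ± 0.25, Neurod4 0.93 ± 0.21 and Neurog1 0.84 ± 0.13), beside 13.8% of all genes.

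Summed marker levels of several cell types differed between the NPC groups too. The summed level of 3 resolved neural progenitor markers of 6 listed ranged from 13.4 to 17.5 CPM in WT NPCs, 45.5 to 52.7 in KO4 and 41.1 to 96.7 in KO8. For 4 resolved neuron markers of 8 (Elavl4, Stmn2, Rbfox3 and Snap25), the ranges were 31.0 to 31.3, 49.1 to 67.4 and 51.5 to 117.4 CPM. Stmn2, the most abundant of these (22.2 CPM over WT and KO4, the authors' mean), was higher in stem cells. By the same mean it stood at 235.9 CPM in naive and 296.1 CPM in primed cells, so it was not particular to neurons here. The more abundant Tubb3, Dcx, Elavl3 and Map2 were not resolved in NPCs. All 5 motor neuron or ventral spinal markers summed to 31.2 to 33.8 CPM in WT, 40.3 to 47.3 in KO4 and 41.4 to 49.4 in KO8. Their called members went opposite ways in both clones. Isl1, a motor neuron factor also used elsewhere, was higher (0.78 ± 0.17 in KO4, adjusted p = 0.048, and 0.80 ± 0.17 in KO8, adjusted p = 0.031). Lhx3, its partner in motor neurons, was lower (-2.56 ± 0.43, adjusted p = 0.023, and -3.12 ± 0.47, adjusted p = 0.012). Over all genes, 1.54% were called higher in KO4 and 4.12% in KO8. Hardly any KO4 call of this stage was kept when a library was left out, as given in the closing section. The 7 endocrine markers, listed because Insm1 and Neurod1 also act in endocrine cells, summed to 5.64 to 5.73, 13.1 to 13.3 and 21.5 to 26.7 CPM, with Ins1 at 0 in all 6 libraries and Pax4 and Ins2 at 0 in all but 1. The 5 pluripotency markers ranged from 72.8 to 114.9 CPM in WT, 69.1 to 74.6 in KO4 and 110.3 to 196.2 in KO8. The 5 cardiomyocyte markers were low, at 5.08 to 5.73 CPM in WT, 2.81 to 3.66 in KO4 and 6.62 to 7.76 in KO8. Among them the troponin gene Tnnt2 was called higher in KO8 than in WT (1.82 ± 0.39, adjusted p = 0.033) and than in KO4 (adjusted p = 0.034). In these comparisons 4.12% and 0.418% of all genes were called higher. The 3 resolved endoderm markers of 5 stayed between 23.9 and 26.6 CPM over all groups, and mesenchyme markers were not resolved. The part of these cell types in the rise of the factors was not tested.

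**Figure D3:**
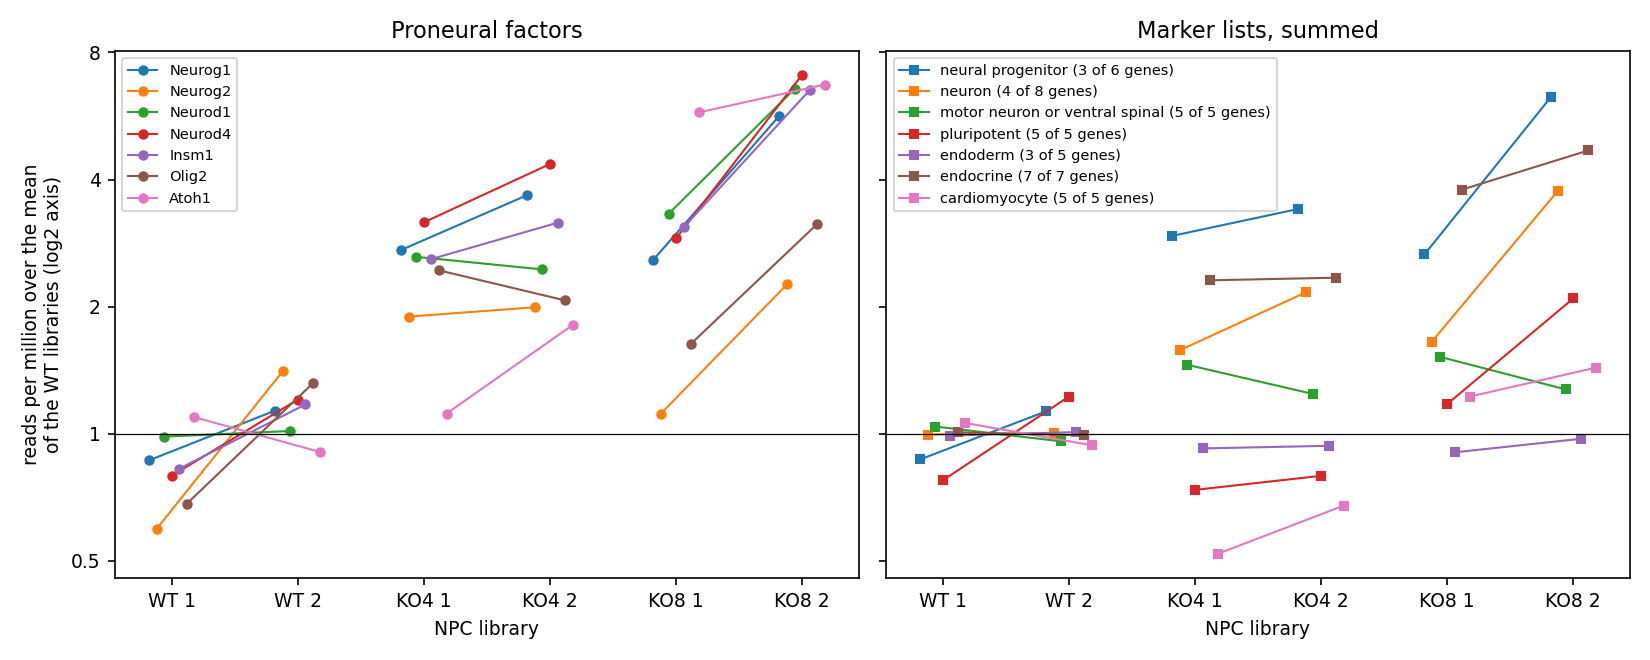
CPM in each NPC library relative to the mean of the WT libraries (vertical axis, log2 scale), for the 7 factors (left) and for summed marker lists (right). A line joins the 2 libraries of a group. The factors and the neural progenitor, neuron and pluripotent lists are higher in the second KO8 library, while the endoderm list (3 of 5 genes resolved) stays near 1.

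In CMs, 2 factors could be tested, and they rose in KO4 and not in KO8. Insm1 had 18 and 13 reads in WT, 40 and 46 in KO4 and 12 and 10 in KO8. Olig2 had 6 and 20 reads in WT, 48 and 51 in KO4 and 14 and 14 in KO8. For both genes the KO4 libraries lay above all others, and the share of all genes that did so was not counted. In KO4 the log2 fold change was 1.57 ± 0.42 for Insm1 (adjusted p = 0.0063) and 2.25 ± 0.52 for Olig2 (adjusted p = 0.0023), so 2 of 2 were called, beside 23.2% of all genes. In KO8 it was -0.43 for Insm1 (adjusted p = 0.61) and 0.38 for Olig2 (adjusted p = 0.71), so 0 of 2 were called, also by limma trend and at an unadjusted p (36.9% of all genes in either direction), beside 12.2% of all genes called higher. Counts were low, and with all 27 libraries in 1 fit Insm1 was no longer called in KO4 (adjusted p = 0.15).

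The clones differed from each other in CMs. Insm1 was lower in KO8 than in KO4 by a log2 difference of -2.0 ± 0.46 (adjusted p = 0.0025) and Olig2 by -1.87 ± 0.48 (adjusted p = 0.0050), where 23.0% of all genes were lower. The Insm1 call held in 8 of 9 alternative fits. Without the first KO8 library the Olig2 difference was -1.81 ± 0.67 (adjusted p = 0.055). Neural markers followed the same pattern: 6 resolved neuron markers of 8 summed to 12.1 to 13.9 CPM in WT CMs, 27.4 to 33.3 in KO4 and 6.48 to 7.47 in KO8. Pluripotency markers were ordered the same way, with 3 resolved of 5 at 39.0 to 46.0 CPM in WT, 65.2 to 104.0 in KO4 and 15.8 to 16.6 in KO8. Of these, Zfp42 (1.82 ± 0.24 in KO4 and -2.14 ± 0.48 in KO8) and Esrrb (1.34 ± 0.20 and -1.95 ± 0.36) rose in KO4 and fell in KO8, while Klf4 fell in both. The endoderm factor Foxa2 went the other way, falling in KO4 (-2.90 ± 0.49) and rising in KO8 (0.72 ± 0.22). The neural genes Sox1 and Pax6 averaged 97.7 and 79.3 CPM over the libraries of WT and KO4, but 4.55 and 4.20 CPM over those of WT and KO8, as the authors' means. The part of neural, pluripotent or endoderm cells in these differences was not tested.

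The remaining factors were rare in CMs. Neurod1 had 10 and 14 reads in WT, 8 and 10 in KO4 and 1 and 0 in KO8. Summed over the group, Neurod1 was 23.6-fold lower in KO8 than in WT, with an exact 95% interval of 3.85 to 972.2. The interval addresses counting error only, and is too narrow if both mates of a pair were counted. Neurog1 had 0 and 2 reads in WT, 1 and 2 in KO4 and 2 and 2 in KO8. Neurog2 had at most 2 reads in any CM library, Neurod4 at most 1 and Atoh1 none. No difference in these 4 genes was detectable at this depth.

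Whether a clone's difference from WT was itself different in NPCs and CMs was tested over 5 factors in the fit of 27 libraries. Neurog1, Neurog2, Neurod4 and, in KO8, Neurod1 had 4 reads or fewer in at least 1 CM group, so no size of the difference is given for them. In KO8, Insm1 stood at 2.62 ± 1.17 on the log2 scale (adjusted p = 0.15), beside 8.40% of genes with a higher effect in NPCs, and without the first KO8 library of the NPC stage at 3.16 ± 1.08 (adjusted p = 0.048). In KO4 none of the 5 passed in either direction, where 31.1% of genes did, and 1 had an unadjusted p below 0.05, as had 40.6% of genes. Neurod1 stood at 1.60 ± 0.86 there (adjusted p = 0.17, and 0.020 by limma trend).

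In primed cells, the shared first step of both protocols, Neurod1 was the factor that differed. It had 257 and 249 reads in WT, 224 and 207 in KO4 and 128 and 159 in KO8. Its level was 14.3 ± 0.17 CPM in WT, 12.8 ± 0.64 in KO4 and 9.00 ± 2.2 in KO8 (SD, n = 2). Neurod1 fell in KO8 by 0.70 ± 0.15 on the log2 scale (adjusted p = 0.00082), and was the 1 of 3 factors called lower, beside 7.02% of all genes. Leaving out the first KO8 library took Neurod1 to -0.44 ± 0.19 (adjusted p = 0.15). In KO4 none of the 3 was called by limma voom or limma trend (1 at an unadjusted p below 0.05, as were 31.3% of all genes), beside 11.5% of genes called lower. Neurod1 stood at -0.16 there (adjusted p = 0.45).

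Insm1 separated the clones in primed cells. It had 156 and 153 reads in WT, 171 and 220 in KO4 and 115 and 110 in KO8, so KO4 lay above WT and KO8 below it. The share of all genes ordered in this way was not counted. Against WT neither difference was called (KO4 0.40 ± 0.16, adjusted p = 0.069, and KO8 -0.32, adjusted p = 0.26). Without the first KO4 library, Insm1 was called higher in KO4 (0.58 ± 0.18, adjusted p = 0.018). Between the clones Insm1 was lower in KO8 by a log2 difference of -0.72 ± 0.17 (adjusted p = 0.0093) and Neurod1 by -0.54 ± 0.16 (adjusted p = 0.048), so 2 of 3 were called, where 0.884% of all genes were lower. These calls were lost without single libraries. Insm1 was at -0.53 ± 0.21 without the second KO4 library (adjusted p = 0.23), -0.65 ± 0.22 without the first KO8 library (adjusted p = 0.17) and -0.77 ± 0.22 without the second (adjusted p = 0.057). Neurod1 was at -0.49 ± 0.19 without the first KO4 library (adjusted p = 0.23), -0.59 ± 0.19 without the second (adjusted p = 0.075) and -0.28 ± 0.19 without the first KO8 library (adjusted p = 0.67).

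Olig2 was the most abundant factor in primed cells and changed little. It had 815 and 794 reads in WT, 709 and 668 in KO4 and 748 and 567 in KO8. Both clones stood at a log2 fold change of -0.16 (adjusted p = 0.17 in KO4 and 0.20 in KO8). All KO libraries lay below both WT libraries for Neurod1 and Olig2 after scaling, as they did for 20.2% of all genes. Atoh1 had 0 and 2 reads in WT, 4 and 4 in KO4 and 10 and 8 in KO8, and was below the filter. Neurog1 had 10 and 4 reads in WT, 1 and 6 in KO4 and 8 and 6 in KO8. Neurod4 was read only in KO4 (4 and 2 reads), and Neurog2 in none of the 6 libraries.

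In naive cells, only Neurod1 reached the filter. It had 35, 38 and 32 reads in WT, 64, 45 and 43 in KO4 and 35, 29 and 26 in KO8. The KO4 libraries lay above the others, and the share of all genes that did so was not counted. The log2 fold change of 0.55 ± 0.25 was not called (adjusted p = 0.11), beside 9.05% of genes called higher. In KO8 it was -0.18 (adjusted p = 0.69), beside 5.13% of genes called lower. Olig2 was far more abundant, at 44.6 CPM over the libraries of WT and KO4 and 41.5 CPM over those of WT and KO8 (the authors' means). Its counts per library were not resolved, so no error or test can be given. Neurog1 had 2, 0 and 4 reads in WT, 6, 6 and 8 in KO4 and 3, 13 and 12 in KO8, and Neurog2 had none in any of the 9 libraries. Neurod4, Insm1 and Atoh1 had at most 12 reads in any naive library.

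Other genes of the pathway were followed through lists chosen by known role. Among genes that act downstream of proneural factors, 19 of 25 could be tested in NPCs. In KO8, 4 of the 19 were called higher, beside 4.12% of all genes, and none lower. They were the Notch ligand Dll1 (2.01 ± 0.50, adjusted p = 0.049), the stress-response gene Gadd45g (1.67 ± 0.34, adjusted p = 0.030) and the neuronal transcription factors Ebf3 (1.92 ± 0.41, adjusted p = 0.033) and Myt1 (2.2 ± 0.51, adjusted p = 0.040), named after their values were seen. Dll1 had 168 and 156 reads in WT, 464 and 547 in KO4 and 487 and 1022 in KO8. In KO4 none of the 19 was called, while 12 had an unadjusted p below 0.05, as had 18.8% of all genes. The estimate was above 0 for 18 of 19 genes in each clone, with medians of 1.24 in KO4 and 1.64 in KO8 beside -0.02 and 0.00 over all genes. These comparisons share the WT libraries, and the second KO8 library was the higher one for 18 of the 19.

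Among 14 other neural bHLH factors, 9 could be tested in NPCs and none was called in either clone (3 in each clone had an unadjusted p below 0.05, beside 18.8% of all genes in KO4 and 24.3% in KO8). The estimate was above 0 for 6 of the 9 in KO4 and for 8 in KO8. Of 10 inhibitors of proneural activity, 4 could be tested and none was called (1 in KO4 and 2 in KO8 at an unadjusted p below 0.05). The Notch effector Hes5 stood at 1.61 ± 0.49 in KO4 (adjusted p = 0.13) and 1.57 ± 0.48 in KO8 (adjusted p = 0.089). None of the 3 E proteins was resolved in NPCs.

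In primed cells 11.5% of all genes were called lower in KO4 and 7.02% in KO8. Gadd45g (-0.68 ± 0.16 in KO4 and -0.79 ± 0.16 in KO8) and Dll1 (-0.47 ± 0.16 and -0.55 ± 0.16) were the 2 of 11 downstream genes called, and both fell in both clones. Hes6, a positive partner of proneural factors, was not called (-0.15 and -0.21). Id4, which sequesters E proteins, fell in both clones (-1.06 ± 0.30 and -1.42 ± 0.33), with Hey1 and Hes3 also lower in KO4, so 3 of 7 inhibitors fell in KO4 and 1 in KO8. With lists this short, 1 call of 4 or 7 genes cannot be set apart from those shares. Olig1, the neighbour of Olig2 on chromosome 16, was the 1 of 4 other bHLH factors called lower, in both clones (-0.34 ± 0.10 and -0.44 ± 0.10). Of the E proteins only Tcf4 was resolved, and it was lower in KO4. In naive cells 3 other bHLH factors could be tested. Neurog3 rose in KO4 (1.59 ± 0.49, adjusted p = 0.015) and Olig3 in KO8 (1.13 ± 0.32, adjusted p = 0.0098), beside 9.05% and 12.1% of all genes, and the single inhibitor and single downstream gene tested were not called.

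In CMs the downstream list moved in both directions. In KO4, 5 of 14 rose and 7 fell, beside 23.2% and 29.1% of all genes, and in KO8, 2 rose and 5 fell, beside 12.2% and 13.4%. Dll1 had 111 and 69 reads in WT, 1008 and 1029 in KO4 and 84 and 64 in KO8, a log2 fold change of 3.64 ± 0.19 in KO4. The fate factors Ebf2 (-6.71 ± 0.79 in KO4 and -2.56 ± 0.25 in KO8) and Ebf3 (-4.45 ± 0.51 and -2.04 ± 0.25) fell in both clones, and the corepressor Cbfa2t3, on chromosome 8, fell in KO4 (-4.97 ± 0.37) and rose in KO8 (0.67 ± 0.09). Ebf2, Ebf3 and Cbfa2t3 also act outside the nervous system. Among inhibitors, Hes5 rose in KO4 (3.12 ± 0.42), Hey2, a ventricular muscle factor, fell in KO4 (-3.41 ± 0.23) and Id4 fell in both (-1.46 ± 0.21 and -0.92 ± 0.18). Among 5 other bHLH factors, Olig1 (1.12 ± 0.38), Tal2 and Ascl2 (1.52 ± 0.50) rose in KO4, and Atoh8 fell in KO4 (-2.70 ± 0.36) and rose in KO8 (0.59 ± 0.17).

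**Figure D4:**
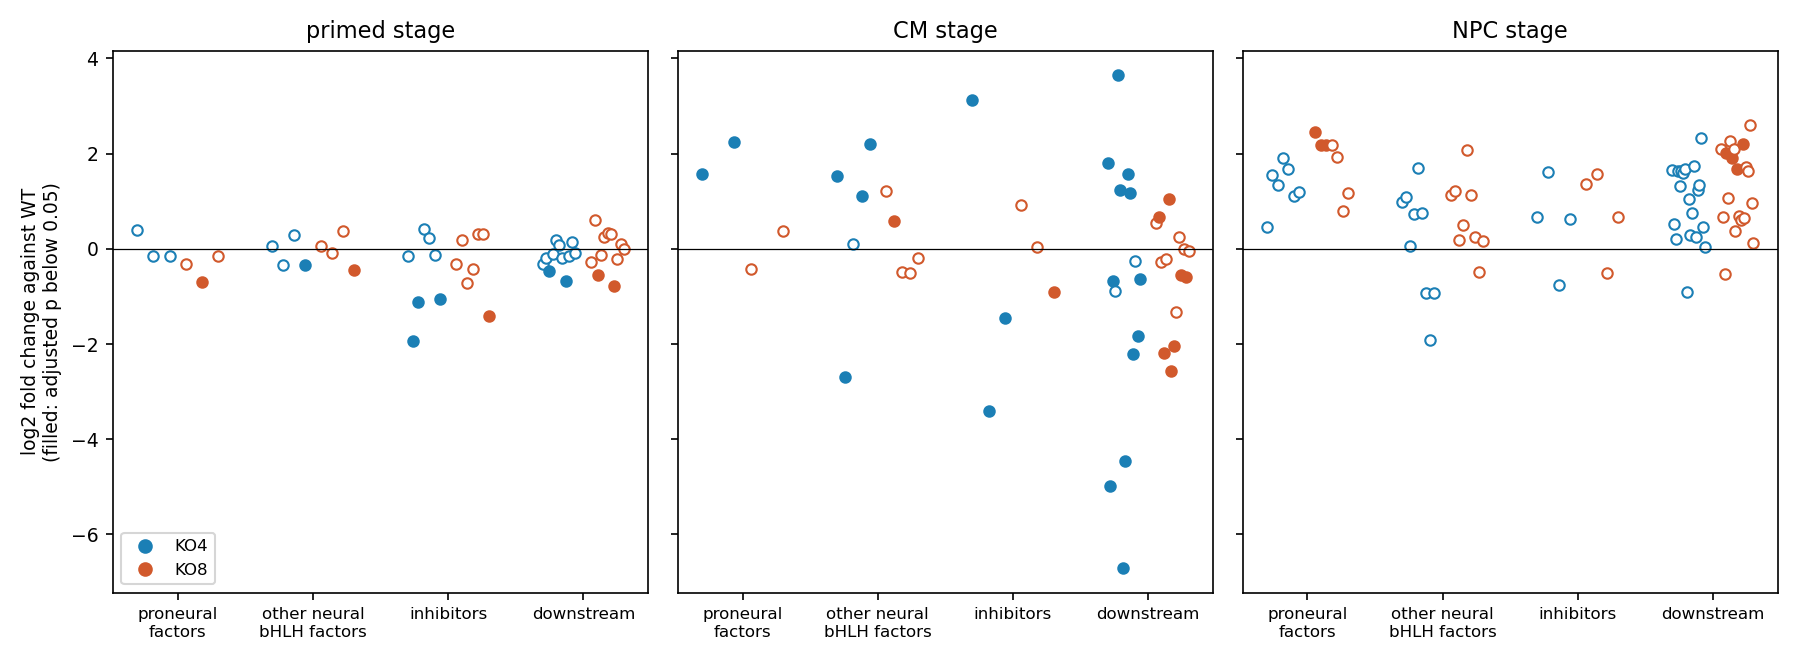
Log2 fold change against WT (vertical axis) of each tested gene of the proneural factors and 3 pathway lists in the primed, CM and NPC stages. Points are genes, blue for KO4 and orange for KO8, and filled points have an adjusted p below 0.05. In NPCs 18 of 19 downstream genes lie above 0 in each clone, while in CMs they spread from -6.71 to 3.64 in KO4.

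Across the 27 libraries the factors did not share 1 pattern. Pearson's r of log2(CPM + 1) was 0.99 between Neurog1 and Neurog2 and between Neurog1 and Neurod4, but 0.27 to 0.35 between Neurod1 and these 3, since Neurod1 was also high in primed cells. Points in these correlations share stage, depth and scaling, so they describe the 27 libraries and carry no p. The factors were also set against 1752 genes with a mean of at least 1 CPM and counts resolved at every stage. Genes high in naive cells, among others, were thus left out. Among the 1752, the 5 genes most like the mean of 6 factors (without Olig2) were Chrnb2 (r = 0.97), a nicotinic receptor subunit, Cspg5 (r = 0.97), a neuronal proteoglycan, Disp3 (r = 0.95), Fstl5 (r = 0.95) and Rfx4 (r = 0.94). Cspg5, for example, was at 5.87 ± 0.19 CPM in WT NPCs, 15.7 ± 0.90 in KO4 and 23.2 ± 10 in KO8 (SD, n = 2), and between 0.32 and 2.86 CPM in the groups of the other stages.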

How the data were processed

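Total RNA of 27 libraries was sequenced as mRNA. Per the study's methods and the submitters' processing notes, the authors trimmed reads with Trim Galore 0.6.7, used HISAT2 2.2 for alignment to mm9, obtained gene counts from featureCounts and scaled these in DESeq2 1.46.0. Whether counting used strand is not given in the sources used here. The 8 deposited tables hold 0 columns of per-sample values. Their columns of log2 fold changes, standard errors, test statistics and p-values are the authors' own comparisons and were not used.

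The deposited base mean column holds the authors' mean normalised signal per gene over the libraries of 2 groups, as read counts divided by size factors. Since these are sums of whole reads over fixed factors, and the WT libraries stand in both tables of a stage, size factors and reads per library were solved from them, and only genes with exactly 1 solution were kept, up to a base mean of 50 (naive), 800 (primed) and 700 (NPC and CM). This gave 13432, 20476, 18874 and 18733 genes in the naive, primed, NPC and CM stages. The search allowed only solutions in which libraries of a group lay within a set distance of each other. Counts that differed more could not be recovered correctly, which bounds the spread behind the errors and p-values. The recovery was tested on simulated data. Library numbers within a group are arbitrary. Counts were mostly even at low levels, which fits both mates being counted, so counting intervals are too narrow and cover counting error only.

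Negative binomial count models were not run, because the deposited unit is a mean signal over 2 groups and reads were recovered for part of the genes only. As planned, limma voom 3.58.1 in R 4.3.3 was applied to genes with a mean of at least 10 reads, with Benjamini-Hochberg adjustment and a threshold of 0.05. Each stage was fitted with its 3 groups, and contrasts between stages with all 27 libraries (median-of-ratios scaling). Alternatives were a mean of 30 reads or no filter, total counts as scaling, limma trend on log2(normalised count + 1), only the 2 groups compared, all 27 libraries in 1 fit, each library left out, and 18 libraries without the naive stage, the last added after seeing the data. All 7 factors were named in every comparison. List genes were drawn from the 3 with the smallest p in both clones, per list and stage where any passed in both. Further list genes were named outside this rule, with their values known. The 5 genes of like pattern were named by correlation. Values of 1 list gene are not reported here. The factors and all lists were chosen with earlier results of these data known. Exon positions and lengths came from GENCODE annotation of mm9.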

Additional observations from a re-analysis of the deposited data

Results flagged for a closer look

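Differences between the 2 clones, or between the effects of 1 clone in 2 stages, passed the test of the difference itself in 4 cases, counting no case where a group had 3 reads or fewer. In primed cells, Insm1 was lower in KO8 than in KO4 by -0.72 ± 0.17 on the log2 scale (limma voom, adjusted p = 0.0093) and Neurod1 by -0.54 ± 0.16 (adjusted p = 0.048), and both calls were lost when all 27 libraries were fitted together. In CMs, Insm1 differed by -2.0 ± 0.46 (adjusted p = 0.0025) and Olig2 by -1.87 ± 0.48 (adjusted p = 0.0050), on 22 to 99 reads per group. Insm1 kept its call in 8 of 9 alternative fits and Olig2 in 7 of 8. All 4 cases were between the clones. Their causes were not tested. No group had 4 or more libraries, so single libraries were not screened for distance from their group.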

How the results depend on the processing

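Limits first: groups of 2 libraries, low counts in CMs and naive cells, and the missing counts of highly expressed genes bound what can be said, and causes of the shifts below were not tested. No paired analysis was possible because the recovered libraries carry no replicate number.

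The number of factors called in the comparisons moved as follows. Without a filter on low counts it went from 0 to 1 for naive KO8 (Neurod4), 1 to 2 for primed KO8 (Neurod1 and Atoh1), 2 to 0 for primed KO8 against KO4, 3 to 2 for NPC KO8, 0 to 1 for CM KO8 (Neurod1) and 2 to 3 for CM KO8 against KO4. With a mean of at least 30 reads it was 0 for CM KO4 and for CM KO8 against KO4, where no factor was left, and 2 for NPC KO8, for WT NPC against primed and for WT NPC against CM. With total counts as scaling it was 1 for primed KO4, 5 for NPC KO8 and 5 for WT NPC against CM (4 before). With limma trend it was 4 for NPC KO4, 5 for NPC KO8, 5 for WT NPC against CM and 1 for the KO4 effect in NPC against CM. With only the 2 groups compared it was 5 for NPC KO4 and 0 for NPC KO8. With 18 libraries it was 5 for WT NPC against primed (4 before). With all 27 libraries it was 5 for NPC KO4, 4 for NPC KO8, 0 for primed KO8, 0 for primed KO8 against KO4, 0 for CM KO4, 1 for CM KO8 and 1 for CM KO8 against KO4.

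Leaving out 1 library gave 0 to 1 for primed KO4, 0 to 1 for primed KO8, 0 to 1 for primed KO8 against KO4, 0 to 5 for NPC KO8, 0 to 4 for NPC KO8 against KO4, 1 to 2 for CM KO8 against KO4, 0 to 1 for the KO4 effect and 1 to 2 for the KO8 effect in NPC against CM (Neurod1, on 1 read in CM KO8, is the 1), and 2 to 3 for WT primed against naive and WT CM against primed, where Neurog1 was lost. Over all genes, those called in NPC KO4 numbered 283, with 0 to 1 when a library was left out and 220 to 1463 under the other alternatives, and in NPC KO8 591, with 11 to 2033 and 85 to 933. Over all genes, the numbers called and their range over every alternative were 346 (164 to 451) for naive KO4 against WT, 342 (131 to 441) for naive KO8 against WT, 34 (2 to 80) for naive KO8 against KO4, 1633 (29 to 1596) for primed KO4 against WT, 1189 (32 to 1285) for primed KO8 against WT, 242 (2 to 259) for primed KO8 against KO4, 53 (0 to 1514) for NPC KO8 against KO4, 4126 (1282 to 4190) for CM KO4 against WT, 2016 (537 to 2027) for CM KO8 against WT, 4022 (1270 to 4276) for CM KO8 against KO4, 864 (611 to 2176) for KO4 effect in NPC against CM, 411 (230 to 1060) for KO8 effect in NPC against CM, 1167 (662 to 1180) for WT primed against naive, 2014 (1067 to 5388) for WT NPC against primed, 1867 (1019 to 5126) for WT CM against primed and 1527 (903 to 4068) for WT NPC against CM.

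Of the fold changes of single factors, 541 kept direction and call, 37 passed the threshold newly, 30 lost it and 23 changed sign. Changes of sign outside single left-out libraries were Olig2 in NPC KO8 against KO4 with limma trend (0.0070), Neurod4 in WT primed against naive with total counts (-0.0061) and limma trend (-0.61), and Insm1 in WT NPC against primed with total counts (0.0094). With single libraries left out, sign changed for Olig2 in primed KO8 against KO4 (-0.12 to 0.10), Neurod4 in NPC KO8 against KO4 (-0.36 to 0.93), Neurog1 in NPC KO8 against KO4 (-0.29 to 0.84), Neurog2 in NPC KO8 against KO4 (-0.81 to 0.21), Olig2 in NPC KO8 against KO4 (-0.12 to 0.45), Olig2 in CM KO8 against WT (-0.51 to 1.23), Insm1 in KO4 effect in NPC against CM (-0.28 to 0.22), Neurog1 in KO4 effect in NPC against CM (-0.43 to 1.97), Neurog1 in KO8 effect in NPC against CM (-0.45 to 1.95), Neurog2 in KO8 effect in NPC against CM (-0.41 to 1.99), Neurod4 in WT primed against naive (-0.41 to 1.07) and Neurog2 in WT CM against primed (-0.40 to 2.01). Total counts as scaling shifted the median gene by 1.05 (primed against naive), 2.23 (NPC against primed), 1.79 (CM against primed) and 0.40 (NPC against CM).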
